A study of Mus musculus with 23 samples.

Results

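Itaconate, nitric oxide and arginine, tryptophan and glucose metabolism meet in activated macrophages, and 10 genes of these routes are described here across inflamed mouse lungs. The members, of 41388 genes in the count table, were taken by symbol: the itaconate enzyme Acod1, the inducible nitric oxide synthase Nos2, the arginases Arg1 and Arg2, the arginine transporter Slc7a2, the tryptophan-degrading enzyme Ido1, the hypoxia factor Hif1a, the glucose transporter Slc2a1 and the glycolytic enzymes Hk2 and Pfkfb3. The rule itself uses no measured value, although the members were chosen with earlier results of these data known. All 10 were found, and all 10 passed the filter on low counts that left 17148 genes for testing.

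Whole lungs of male Balb/c mice were studied by RNA-seq of poly(A) RNA, with a library for each mouse. The mice inhaled clean air or an aerosol of lipopolysaccharide (LPS, a bacterial wall component, 0.21 mg/ml) for 10 min on 3 days running. At 1 h after every exposure they were injected into the peritoneum with saline or with 4 mg/kg of human alpha1-antitrypsin (AAT), the main blood inhibitor of neutrophil elastase, and the experiment ended 6 h after the last injection. The groups were air (n = 3), LPS with saline (n = 5), and LPS with native AAT (nAAT, n = 5), oxidized AAT (oxAAT, n = 5) or recombinant AAT (recAAT, n = 5). All mice were of the same strain and sex with no altered allele named, all AAT groups also breathed LPS, and no group received AAT without LPS. The ages are not given, and mice given an AAT peptide were not analysed here.

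Acod1 makes itaconate from an intermediate of the tricarboxylic acid (TCA) cycle in macrophages that meet LPS, and itaconate slows succinate dehydrogenase. Nos2 and the arginases use the same substrate, arginine, which Slc7a2 brings into the cell; Nos2 turns it into nitric oxide and citrulline, while arginase turns it into ornithine and urea. Hif1a encodes the oxygen-regulated subunit of a transcription factor that raises glucose uptake and glycolysis, processes in which Slc2a1, Hk2 and Pfkfb3 act.

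The promoter sequence just before the RefSeq transcription start was read for the members the RefSeq table held, which were Acod1, Hif1a, Slc2a1, Hk2 and Pfkfb3 (6 windows in all, GRCm38.p6). The 4 windows below are shown so that the LPS-responsive Acod1 can be read beside the glucose-handling members. Each runs 5′ to 3′ on the gene's own strand over the 250 bases that end at the last base before that start, and capitals mark the core letters ACGTG of the hypoxia response element, on either strand (CACGT on the other). The windows lie at chr14:103046762-103047011 (plus strand, Acod1), chr4:119108495-119108744 (plus strand, Slc2a1), chr6:82774455-82774704 (minus strand, Hk2) and chr2:11553930-11554179 (minus strand, Pfkfb3).
Acod1: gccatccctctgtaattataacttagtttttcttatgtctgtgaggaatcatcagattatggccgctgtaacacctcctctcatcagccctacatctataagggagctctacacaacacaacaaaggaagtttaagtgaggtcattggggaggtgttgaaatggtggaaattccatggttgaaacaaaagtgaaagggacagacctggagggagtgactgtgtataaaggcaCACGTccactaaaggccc
Slc2a1: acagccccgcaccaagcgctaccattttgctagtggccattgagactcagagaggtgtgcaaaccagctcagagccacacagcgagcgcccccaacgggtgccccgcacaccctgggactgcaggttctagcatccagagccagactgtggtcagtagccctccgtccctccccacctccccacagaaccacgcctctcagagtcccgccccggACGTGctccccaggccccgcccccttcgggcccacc
Hk2: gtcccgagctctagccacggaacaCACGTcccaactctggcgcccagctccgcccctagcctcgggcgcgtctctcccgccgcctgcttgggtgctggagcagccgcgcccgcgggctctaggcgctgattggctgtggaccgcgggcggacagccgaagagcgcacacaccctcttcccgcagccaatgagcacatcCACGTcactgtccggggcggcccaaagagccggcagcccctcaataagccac
Pfkfb3: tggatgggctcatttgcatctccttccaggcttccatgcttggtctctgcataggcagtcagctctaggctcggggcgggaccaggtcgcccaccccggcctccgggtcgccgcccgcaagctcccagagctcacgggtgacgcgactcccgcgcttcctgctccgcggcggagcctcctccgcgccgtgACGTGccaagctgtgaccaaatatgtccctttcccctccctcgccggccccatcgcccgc

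The core letters stood in all 6 windows of the 5 members, and in 16.6% of the 32817 windows of this length in the table. G and C made up 44.4% of the Acod1 window and 60.4% to 69.6% of the others. The share over all windows was not matched for G and C content. They began 18 bases before the RefSeq start in Acod1 and 36 bases before it in Slc2a1. The GENCODE genes, whose coordinates are given with each member, start 35 bases (Acod1), 34 bases (Slc2a1) and 148 bases (Pfkfb3) upstream of these RefSeq starts, so the match in Acod1 and that in the Pfkfb3 window shown lie inside the GENCODE gene and that in Slc2a1 spans its first base. For Hk2 both starts coincide. For the windows not shown, the GENCODE gene starts 6492 bases (Hif1a) and 51987 bases (the other Pfkfb3 window) upstream of the RefSeq start. A longer motif, the kappa B consensus of the NF-kappa B factors, stood in none of the 6 windows and in 7.25% of all windows. It was searched as the exact form GGGRNNYYCC (R is A or G, Y is C or T, N is any base). Looser forms of it were not searched. A match of letters is a description and not a binding site, and binding was not measured.

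The libraries held 14.8 to 47.9 M gene counts each. A split into 2 unlabelled sets of libraries was known from an earlier analysis of these counts. It rests on mt-Nd6, which unlike the other mitochondrial protein genes is encoded on the light strand: its counts came to 0.338% to 1.14% of those of mt-Nd5 in 15 libraries (first set) and to 3.39% to 4.50% in 8 libraries (second set). All air, LPS and nAAT libraries and oxAAT mice 5101 and 5102 were in the first set, while oxAAT mice 5103, 5104 and 5105 and all 5 recAAT mice were in the second. The defining lung markers Sftpc, Sftpb, Scgb1a1, Ager and Cdh5 summed to 42915 CPM (TMM-scaled counts relative to library size) or more in every library.

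**Figure D1:**
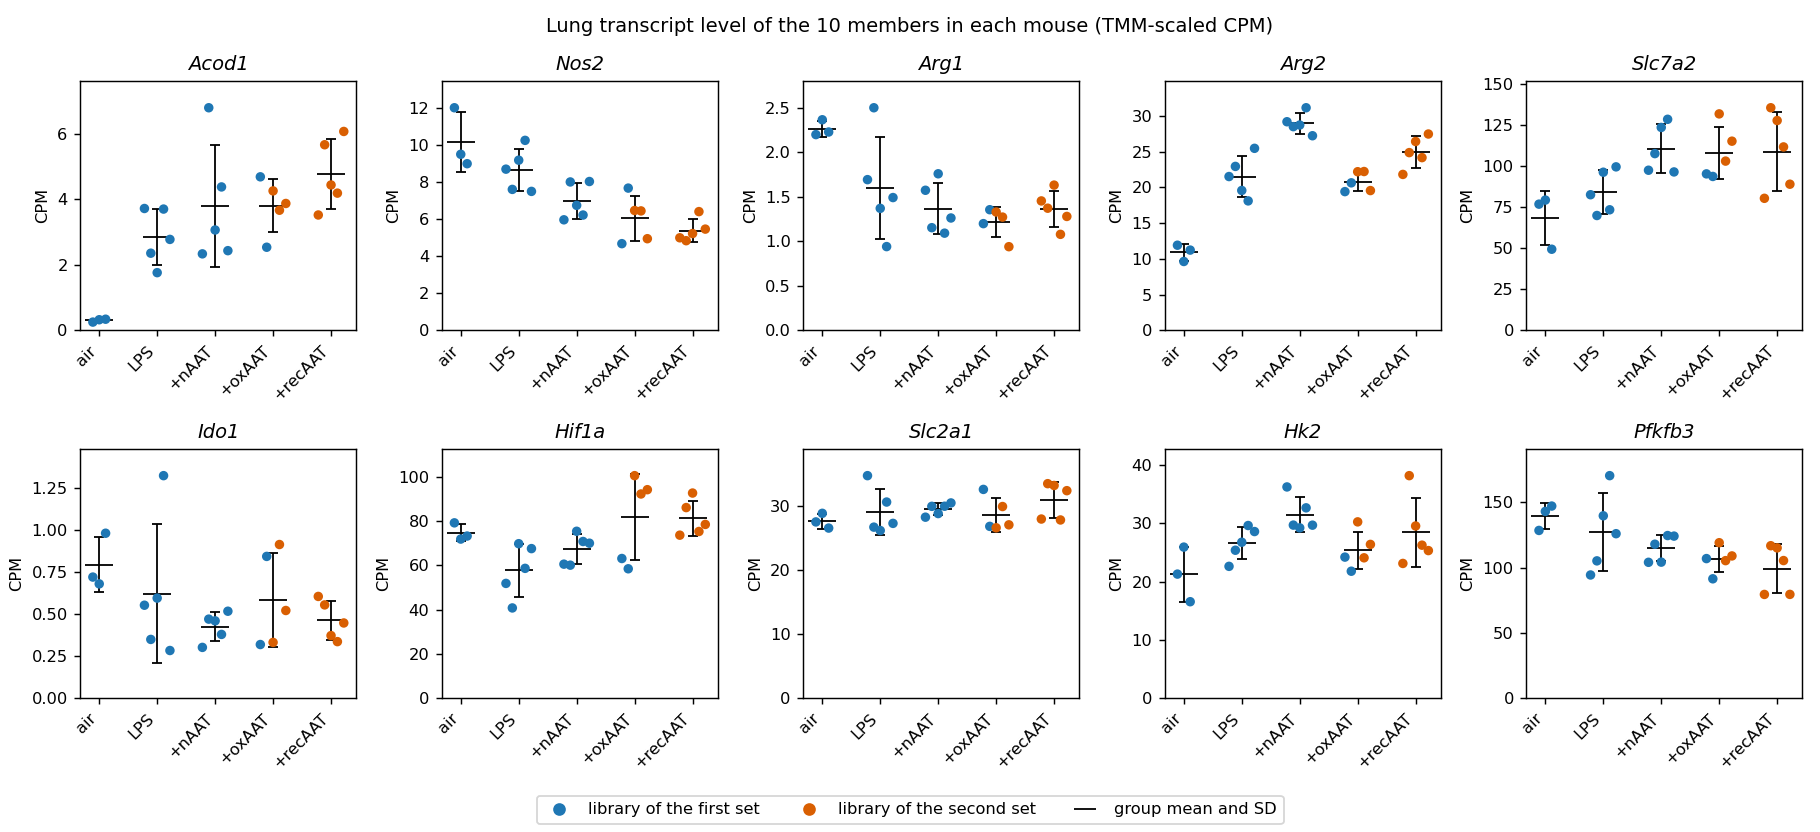
Level of each of the 10 members in every mouse (y axis, TMM-scaled CPM, each panel from 0) in the 5 groups (x axis). Points are mice, coloured by library set, and bars are the group mean and SD; Acod1 and Arg2 of the 4 LPS-exposed groups lie wholly above air, and the second-set oxAAT mice stand above the first-set ones for Hif1a.

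After LPS alone, Acod1 and Arg2 rose and no other member passed the test. Acod1 rose 9.25-fold from a level of 7 to 10 reads a library, and Arg2 rose 1.97-fold from a moderate level. Nos2, the textbook partner of Acod1 in LPS-treated macrophages, did not pass, and its mean was below that of air. Both called members went up, so 2 of 10 were called in a comparison where 4.39% of the 17148 tested genes were called (quasi-likelihood F test of edgeR, two-sided, Benjamini-Hochberg adjusted p under 0.05). The median log2 fold change of the members was -0.03, beside -0.01 over all tested genes.

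Acod1 (ENSMUSG00000022126, chr14:103046977-103056573, plus strand, GRCm38), which makes itaconate, was almost silent in clean air, at 0.253, 0.324 and 0.340 CPM from 7 to 10 reads a library. The LPS mice held 3.71, 2.35, 1.76, 3.70 and 2.77 CPM. The groups did not overlap: the lowest LPS mouse lay well above the highest air mouse. On the log2 scale the rise was 3.21 ± 0.41 (SE; edgeR adjusted p = 1.21e-05). The small air counts make the size of this fold less certain than its direction, and its 95% interval ran from 2.37 to 4.05 on the log2 scale.

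Acod1 stayed high in all AAT-treated groups. With nAAT the mice held 2.33, 6.79, 3.06, 4.37 and 2.43 CPM, with mouse 4102 well above the rest. Those given oxAAT held 4.68, 2.53, 4.25, 3.66 and 3.87 CPM, and those given recAAT held 3.52, 5.66, 4.43, 4.18 and 6.06 CPM. Each of these groups lay wholly above air, with rises of 3.62 ± 0.41, 3.61 ± 0.41 and 3.95 ± 0.41 log2 units (SE; edgeR adjusted p = 1e-06, 2.12e-06 and 2.82e-07). The 4 rises share the same 3 air mice.

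None of the AAT forms changed Acod1 detectably beyond LPS alone. The recAAT mean of 4.77 ± 1.06 CPM (SD, n = 5) stood above the LPS mean of 2.86 ± 0.853 (SD, n = 5), with 4 of 5 recAAT mice above every LPS mouse, but the difference of 0.74 ± 0.26 log2 units missed the threshold (edgeR adjusted p = 0.0782). Differences were 0.41 ± 0.26 with nAAT (adjusted p = 0.478) and 0.40 ± 0.26 with oxAAT (adjusted p = 0.4, both by edgeR). The nAAT difference rested on mouse 4102, without which it was 0.08.

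Of the 112 tested genes of 6 pathway lists, 6 were called after LPS (5.36%), beside 4.39% of all tested genes. Slc13a3 is a sodium-coupled carboxylate transporter known to carry itaconate into cells. It was the single called gene of the 26 tested on itaconate handling and the TCA cycle after LPS. It held 0.505, 0.357 and 0.227 CPM in air and 2.93, 2.10, 1.88, 2.62 and 1.67 CPM in LPS, with no overlap. It rose by 2.61 ± 0.28 log2 units (SE; edgeR adjusted p = 1.37e-06). Its air level was low, near that of Acod1, so the size of this rise is less certain than its direction. Slc13a3 was also called above air in each AAT group, at 2.30 ± 0.28, 2.57 ± 0.28 and 2.65 ± 0.28 log2 units with nAAT, oxAAT and recAAT. The rest of the list, among them the succinate dehydrogenase subunits Sdha to Sdhd and the isocitrate dehydrogenases, was not called after LPS, and the list's median was -0.01, as over all tested genes.

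Nos2 (ENSMUSG00000020826, chr11:78920787-78960254, plus strand), the inducible nitric oxide synthase, was expressed in clean air at 12.01, 9.50 and 9.0 CPM. The LPS mice held 8.70, 7.61, 9.18, 10.3 and 7.50 CPM, and the groups overlapped. The difference from air was -0.23 ± 0.16 log2 units (SE; edgeR adjusted p = 0.486), with a 95% interval of -0.56 to 0.10. Without air mouse 2101, the highest of the 3, the difference was -0.09.

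Nos2 had its lowest means in the AAT-treated lungs. It held 5.97, 8.01, 6.75, 6.23 and 8.03 CPM with nAAT, 4.68, 7.68, 6.47, 6.45 and 4.95 CPM with oxAAT, and 5.0, 4.84, 5.23, 6.41 and 5.46 CPM with recAAT. All recAAT mice lay below all LPS mice, 4 of 5 oxAAT mice did so, and so did 3 of 5 nAAT mice. Relative to LPS, Nos2 fell by 0.69 on the log2 scale with recAAT (SE 0.14; edgeR adjusted p = 0.00366) and by 0.51 with oxAAT (SE 0.14; adjusted p = 0.0371), while the nAAT difference of -0.30 ± 0.14 did not pass (adjusted p = 0.313).

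The set of the library moved with these results, because all recAAT libraries and 3 of 5 oxAAT libraries were in the second set. Within oxAAT, Nos2 held 4.68 and 7.68 CPM in the 2 first-set mice and 4.95 to 6.47 CPM in the 3 second-set mice, so the sets overlapped. With a model term for the set the differences from LPS were -0.63 with recAAT (edgeR adjusted p = 0.624) and -0.48 with oxAAT (adjusted p = 0.69), close to the main values in size but no longer called. The oxAAT call was also lost in the fit of the first set alone (-0.48, edgeR adjusted p = 0.934). Leaving out LPS mouse 1101, 1102, 1103 or 1104 or oxAAT mouse 5101, 5103, 5104 or 5105 ended it too, with adjusted p of 0.0591 to 0.112.

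Against air, Nos2 was lower in all 3 AAT groups, by -0.54 ± 0.16 log2 units with nAAT (edgeR adjusted p = 0.0477), -0.75 ± 0.16 with oxAAT (0.00527) and -0.92 ± 0.16 with recAAT (0.000403). Every AAT-treated mouse lay below the lowest air mouse. Without air mouse 2101 the nAAT and oxAAT calls were lost (-0.39 and -0.60). The nAAT call was also lost without air mouse 2102 or 2105 or nAAT mouse 4101, 4103 or 4104. With the set as a term none of the 3 differences was called. They were -0.54 with nAAT (edgeR adjusted p = 0.0504), -0.71 with oxAAT (0.0925) and -0.86 with recAAT (0.127). In the first set alone the nAAT and oxAAT calls were lost (-0.54 and -0.70, edgeR adjusted p = 0.108 and 0.209).

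Of 18 tested genes that supply nitric oxide synthesis with cofactor and arginine, Gch1 was called after LPS. Gch1, the rate-limiting enzyme of tetrahydrobiopterin synthesis and so of the Nos2 cofactor, went from 13.2, 12.97 and 14.9 CPM in air to 20.8, 22.5, 18.6, 14.4 and 21.6 CPM in LPS. LPS mouse 1104 lay inside the air range and the other 4 above it. The rise was 0.52 ± 0.13 log2 units (SE; edgeR adjusted p = 0.0195), and it lost its call without air mouse 2101 or 2102 or LPS mouse 1102. The other synthases Nos1 and Nos3 and the citrulline-recycling enzymes Ass1 and Asl were not called.

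**Figure D2:**
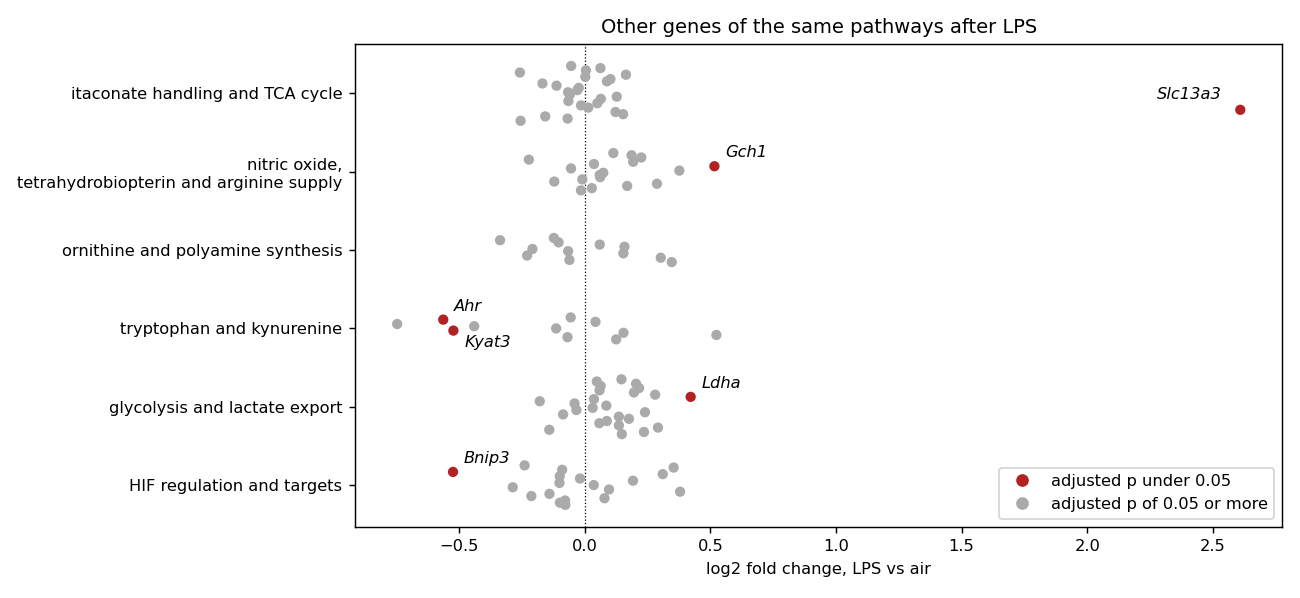
log2 fold change of LPS vs air (x axis) for every tested gene of 6 pathway lists (rows, members left out); points are spread vertically for legibility only. Red points are the 6 genes called at an adjusted p under 0.05: Slc13a3, Gch1 and Ldha higher, and Ahr, Kyat3 and Bnip3 lower. They are 5.36% of the 112 genes drawn, beside 4.39% of all tested genes.

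Arg2 (ENSMUSG00000021125, chr12:79130777-79156301, plus strand), the mitochondrial arginase, separated the groups most cleanly of the 10. Air mice held 11.9, 9.63 and 11.2 CPM and LPS mice 21.5, 22.9, 19.6, 18.1 and 25.5 CPM, with no overlap. The rise was 0.98 ± 0.11 log2 units (SE; edgeR adjusted p = 2.6e-06). With nAAT it went further, to 29.2, 28.5, 28.7, 31.1 and 27.2 CPM, and every nAAT mouse lay above every LPS mouse. The gain over LPS was 0.43 ± 0.09 log2 units (SE; edgeR adjusted p = 0.0303).

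This second step was not called with the other AAT forms. With oxAAT the mice held 19.4, 20.6, 22.2, 22.2 and 19.5 CPM, inside the LPS range, for a difference from LPS of -0.05 ± 0.09 log2 units (edgeR adjusted p = 0.807). The recAAT mice held 21.8, 24.9, 26.4, 24.2 and 27.5 CPM, between the LPS and nAAT levels, for a difference from LPS of 0.21 ± 0.09 (adjusted p = 0.151). That recAAT difference was called when LPS mouse 1105, the highest of its group, was left out (0.27, adjusted p = 0.0429). All nAAT mice lay above all oxAAT mice, and the direct test of oxAAT against nAAT gave -0.48 ± 0.09 log2 units (SE; edgeR adjusted p = 0.0262, 95% interval -0.66 to -0.29).

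Both Arg2 calls between LPS-exposed groups were near the threshold. The nAAT gain over LPS kept its size when any single mouse was left out (0.37 to 0.49) but lost its call without LPS mouse 1101, 1102, 1103 or 1104 or nAAT mouse 4103 or 4104 (adjusted p up to 0.11), and in the first set alone (0.42, adjusted p = 0.0737). The difference between oxAAT and nAAT kept its size likewise (-0.50 to -0.45) and lost its call without nAAT mouse 4101, 4102, 4103 or 4104 or oxAAT mouse 5103 or 5104. With the set as a term it was -0.53 (edgeR adjusted p = 0.282), and in the first set alone -0.52 (adjusted p = 0.307). Against air, Arg2 was called higher in every AAT group, by 1.41 ± 0.11, 0.93 ± 0.11 and 1.19 ± 0.11 log2 units with nAAT, oxAAT and recAAT (edgeR adjusted p = 5.8e-09, 4.04e-06 and 8.65e-08). Exons of Arg2 share 285 bases, 19.96% of their length, with Vti1b on the opposite strand. The strand setting of the counting is not given in the sources used here. Vti1b itself differed by 0.07 log2 units in LPS vs air, and against LPS by 0.03 with nAAT, -0.15 with oxAAT and -0.03 with recAAT. In oxAAT against nAAT it differed by -0.18, the direction of Arg2, and it was called in none of these (edgeR adjusted p of 0.355 or more). The part of shared reads in the Arg2 results was not tested.

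Arg1 (ENSMUSG00000019987, chr10:24915221-24927484, minus strand), the cytosolic arginase and a marker of alternatively activated macrophages, went the other way in its mean, at a low level. It held 2.20, 2.37 and 2.23 CPM in air and 1.69, 2.50, 1.37, 0.942 and 1.49 CPM in LPS, and the groups overlapped through LPS mouse 1102. The difference of -0.52 ± 0.24 log2 units did not pass (edgeR adjusted p = 0.258). AAT-treated mice ranged from 0.941 to 1.76 CPM, all below air, and the oxAAT group was called below air (-0.89 ± 0.24, edgeR adjusted p = 0.0357). That call was lost when any air mouse or oxAAT mouse 5101, 5103, 5104 or 5105 was left out, with adjusted p of 0.0563 to 0.125. It was also lost with the set as a term (-0.82, edgeR adjusted p = 0.279) and in the first set alone (-0.81, 0.477). No filter (0.0827) and only the 2 groups compared (0.0537) ended it as well.

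Slc7a2 (ENSMUSG00000031596, chr8:40862396-40922308, plus strand), which imports arginine, held 76.8, 79.3 and 49.4 CPM in air and 82.5, 69.9, 96.2, 73.4 and 99.5 CPM in LPS. These overlapped, and the difference of 0.30 ± 0.17 log2 units was not called (edgeR adjusted p = 0.384). It held 97.4, 108, 123, 128 and 96.4 CPM with nAAT, 95.2, 93.6, 132, 103 and 115 CPM with oxAAT, and 80.3, 135, 128, 112 and 88.9 CPM with recAAT. Every AAT-treated mouse lay above every air mouse. Slc7a2 was called higher than air with nAAT (0.69 ± 0.18, edgeR adjusted p = 0.0173), oxAAT (0.65 ± 0.18, 0.0341) and recAAT (0.67 ± 0.18, 0.0193).

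Those 3 Slc7a2 calls depend on air mouse 2105, which at 49.4 CPM lay far below the other 2. Without it the differences were 0.50, 0.47 and 0.48 log2 units with nAAT, oxAAT and recAAT (edgeR adjusted p = 0.145, 0.283 and 0.165). The oxAAT call was also lost without air mouse 2101 or oxAAT mouse 5103, 5104 or 5105, and the recAAT call without recAAT mouse 6102 or 6103. With the set as a term the oxAAT and recAAT differences were 0.46 and 0.36 (adjusted p = 0.404 and 0.571). Against LPS the differences were 0.39, 0.35 and 0.37 log2 units (SE 0.15 each) and none was called (edgeR adjusted p = 0.214, 0.182 and 0.131). Downstream of arginase, 0 of 12 tested genes of ornithine and polyamine synthesis were called by edgeR after LPS, with 3 at an unadjusted p under 0.05 and 1 called by DESeq2.

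Ido1 (ENSMUSG00000031551, chr8:24584136-24597009, minus strand), which opens tryptophan breakdown to kynurenine and is induced by interferon gamma, was scarce in every group. It held 0.722, 0.681 and 0.983 CPM in air and 0.554, 0.350, 0.596, 1.33 and 0.284 CPM in LPS, where mouse 1104 lay above the air range and the other 4 below it. The difference was -0.33 ± 0.41 log2 units (edgeR adjusted p = 0.731), and its 95% interval of -1.18 to 0.51 spans both directions. AAT-treated mice ranged from 0.303 to 0.915 CPM, and no comparison called Ido1.

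Of 11 tested genes on tryptophan and kynurenine, 2 fell after LPS. Kyat3, a kynurenine aminotransferase, fell by 0.52 on the log2 scale, from 9.84 ± 0.523 CPM (SD, n = 3) to 6.84 ± 0.585 (SD, n = 5; edgeR adjusted p = 0.0122). Ahr, the aryl hydrocarbon receptor that kynurenine can bind, fell by 0.56 from 105 ± 10.1 to 70.8 ± 17.2 CPM (adjusted p = 0.0493). The Ahr call was lost when any air mouse or LPS mouse 1101, 1102 or 1104 was left out, and the Kyat3 call without air mouse 2102.

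Hif1a (ENSMUSG00000021109, chr12:73901375-73947530, plus strand) was lower in its mean after LPS than in air. Air mice held 79.1, 71.8 and 73.2 CPM and LPS mice 51.8, 40.7, 69.7, 58.6 and 67.5 CPM, and the groups did not overlap. The difference of -0.37 ± 0.16 log2 units missed the threshold all the same (edgeR adjusted p = 0.213, 95% interval -0.70 to -0.04). With nAAT the level was 60.5, 60.0, 75.3, 70.7 and 69.9 CPM, a difference from LPS of 0.22 ± 0.14 (edgeR adjusted p = 0.482).

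With oxAAT and recAAT, Hif1a was called above LPS, and here the library set moved with the level. The oxAAT mice of the first set held 63.0 and 58.4 CPM, within the LPS range, while those of the second set held 100, 92.1 and 94.1 CPM, above every LPS and air mouse. The recAAT mice, all of the second set, held 73.6, 86.0, 92.6, 75.2 and 78.4 CPM, above every LPS mouse. Over all libraries the rises were 0.50 ± 0.14 log2 units with oxAAT (SE; edgeR adjusted p = 0.0405) and 0.49 ± 0.14 with recAAT (adjusted p = 0.0297). Both calls were lost without LPS mouse 1101, 1102 or 1104, the oxAAT call also without oxAAT mouse 5103, 5104 or 5105, and the recAAT call also without recAAT mouse 6102 or 6103.

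With a model term for the set, the oxAAT difference in Hif1a shrank to 0.07 (edgeR adjusted p = 0.996) and the recAAT difference became -0.16 (adjusted p = 0.893). In the first set alone the oxAAT difference was 0.07 (adjusted p = 0.999). The first set holds no recAAT library, so recAAT is separated from the set in that model through the oxAAT mice alone. AAT form and library set cannot be told apart for recAAT on its own.

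**Figure D3:**
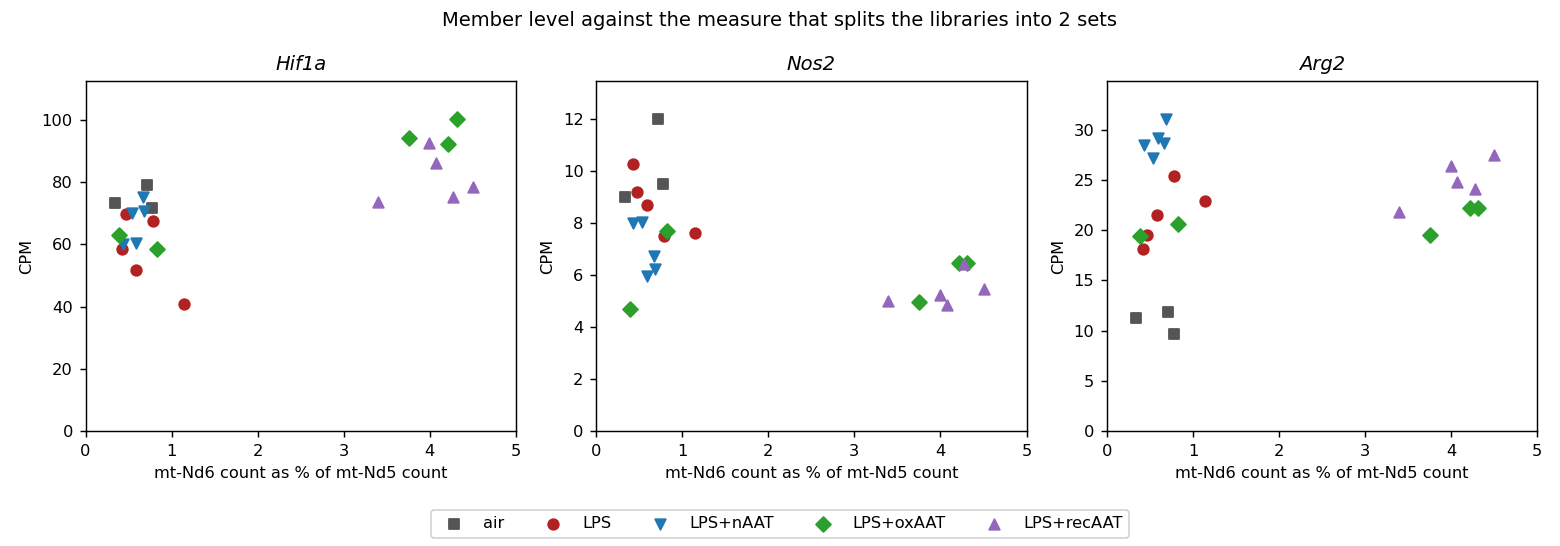
CPM of Hif1a, Nos2 and Arg2 (y axes, from 0) against the mt-Nd6 count as a percent of the mt-Nd5 count (x axis), a point per mouse with the marker giving the group. The oxAAT mice (green diamonds) fall on both sides of the gap: their Hif1a level is higher on the right, while their Nos2 and Arg2 levels overlap between the sides.

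Slc2a1 (ENSMUSG00000028645, chr4:119108711-119137983, plus strand), the basal glucose transporter, was the flattest member. It held 27.5, 28.8 and 26.5 CPM in air and 26.2 to 34.7 CPM in LPS, and group means ran from 27.6 to 30.9 CPM. The LPS difference was 0.07 ± 0.10 log2 units (edgeR adjusted p = 0.754), with a 95% interval of -0.13 to 0.28. Across the 10 comparisons its differences lay between -0.05 and 0.16, and none was called.

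Hk2 (ENSMUSG00000000628, chr6:82725025-82774454, minus strand), the inducible hexokinase that traps glucose in the cell, held 21.3, 25.9 and 16.6 CPM in air and 22.6, 25.4, 26.7, 29.6 and 28.6 CPM in LPS. The difference of 0.32 ± 0.15 log2 units was not called (edgeR adjusted p = 0.253). With nAAT it held 36.2, 29.7, 29.2, 32.6 and 29.7 CPM, wholly above air (0.57 ± 0.15, edgeR adjusted p = 0.0226), though not called against LPS (0.24 ± 0.13, adjusted p = 0.378). Without air mouse 2105 or 2101 or nAAT mouse 4101 the nAAT call against air was lost (0.42, 0.57 and 0.51, edgeR adjusted p = 0.172, 0.0832 and 0.0579). The oxAAT and recAAT ranges, 21.8 to 30.2 and 23.1 to 38.2 CPM, overlapped air.

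Pfkfb3 (ENSMUSG00000026773, chr2:11471433-11554077, minus strand), which makes the activator of phosphofructokinase, held 129, 143 and 147 CPM in air and 94.4, 105, 140, 170 and 126 CPM in LPS, the widest relative spread within LPS among the glucose-handling members. The difference was -0.13 ± 0.15 log2 units (edgeR adjusted p = 0.703). All AAT-treated mice, at 79.5 to 125 CPM, lay below all air mice. Only recAAT was called against air (-0.49 ± 0.15, edgeR adjusted p = 0.0468). Leaving out any air mouse or recAAT mouse 6101, 6104 or 6105 ended the call (adjusted p of 0.0768 to 0.158). It was also lost with the set as a term (-0.66, edgeR adjusted p = 0.213), with DESeq2 size factors (0.0588) and with no filter (0.0676). All recAAT libraries were in the second set and all air libraries in the first.

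Beyond the members, 1 of 26 tested genes of glycolysis and lactate export was called after LPS. Ldha, which makes lactate from pyruvate, rose by 0.42 ± 0.10 log2 units from 267 ± 28.1 CPM (SD, n = 3) to 358 ± 30.2 (SD, n = 5; edgeR adjusted p = 0.0139), and lost the call without air mouse 2101 or 2102. The list's median was 0.11, beside -0.01 for all tested genes. Of 19 tested HIF regulators and targets, Bnip3, a mitophagy receptor and hypoxia target, fell by 0.52 from 50.8 ± 4.87 to 35.3 ± 2.74 CPM (adjusted p = 0.00565). It lost the call without air mouse 2105, and the list's median was -0.08.

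**Figure D4:**
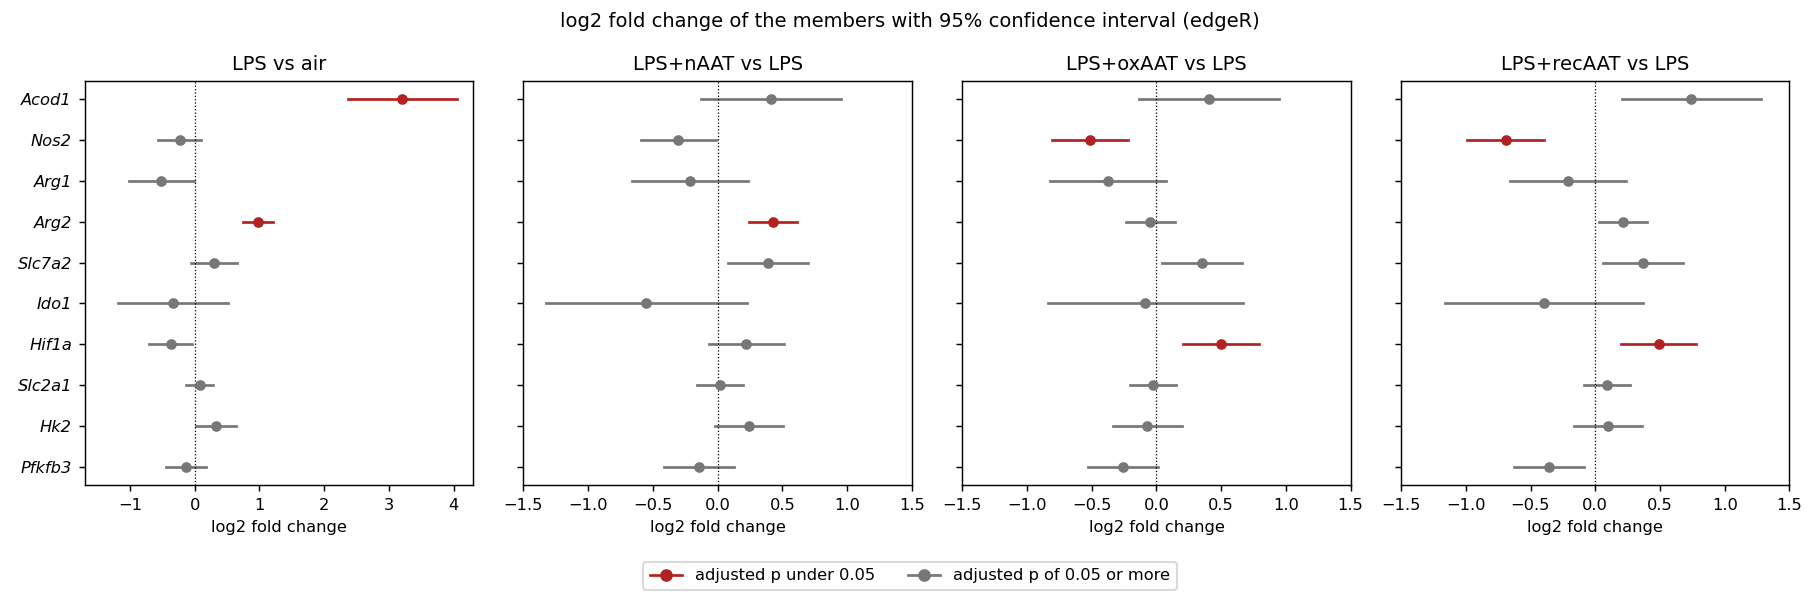
log2 fold change with its 95% confidence interval (x axes) for the 10 members (rows) in LPS vs air and in each AAT group vs LPS; the x range differs between the first panel and the others. Red marks members called at an adjusted p under 0.05: Acod1 and Arg2 with LPS, Arg2 with nAAT, and Nos2 and Hif1a with oxAAT and with recAAT.

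In comparison with LPS alone, 1 or 2 of the members were called in each AAT group. With nAAT, Arg2 alone was called, higher, in a comparison that called 0.595% of all tested genes. With oxAAT, Nos2 was called lower and Hif1a higher, beside 4.71% of all genes. The same 2 members were called in the same directions with recAAT, beside 8.49% of all genes; all 3 comparisons share the 5 LPS mice. With the set as a term no member was called by edgeR with oxAAT (1 at an unadjusted p under 0.05) or recAAT (2), and Arg2 with nAAT was still called. Member medians were 0.12, -0.06 and 0.09 log2 units with nAAT, oxAAT and recAAT, and those of all tested genes lay between -0.01 and 0.00.

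Of the 112 tested list genes, 1 was called against LPS with nAAT (0.893%), 7 with oxAAT (6.25%) and 12 with recAAT (10.7%), beside 0.595%, 4.71% and 8.49% of all tested genes. The call with nAAT was Hif3a, a HIF alpha subunit that can oppose the others, which rose by 1.44 ± 0.32 log2 units from 3.67 ± 0.945 to 9.93 ± 3.13 CPM (edgeR adjusted p = 0.0367). That call was lost when LPS mouse 1101, 1102, 1103 or 1104 or nAAT mouse 4102, 4103, 4104 or 4105 was left out (adjusted p up to 0.0962). Ahr was called higher with oxAAT (0.83 ± 0.15, adjusted p = 0.00311) and recAAT (0.66 ± 0.14, 0.00587). Azin1, which protects ornithine decarboxylase from its inhibitor, was higher by 0.42 ± 0.11 and 0.45 ± 0.11 (adjusted p = 0.033 and 0.0138), and Bnip3 by 0.40 ± 0.10 and 0.38 ± 0.10 (adjusted p = 0.0211 and 0.0168). Hif3a was called higher with recAAT as well (1.31 ± 0.32, edgeR adjusted p = 0.0119).

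Lower than in LPS were Slc3a2, the heavy chain shared by several amino acid transporters, at -0.27 ± 0.08 with oxAAT and -0.35 ± 0.08 with recAAT (edgeR adjusted p = 0.0412 and 0.00583), and the TCA cycle enzyme Mdh2 with recAAT (-0.28 ± 0.09, adjusted p = 0.0455). Of the 26 glycolysis genes, 6 were lower and none higher with recAAT, among them the phosphofructokinases Pfkp (-0.26 ± 0.06, adjusted p = 0.00966) and Pfkm (-0.37 ± 0.10, 0.0178) and the hexokinase Hk3 (-0.46 ± 0.12, 0.0132). With oxAAT, Hk3 (-0.41 ± 0.12, adjusted p = 0.0412) and Pfkfb4 (-0.34 ± 0.09, 0.0244) were lower, as was the stress-response gene Ddit4 (-0.59 ± 0.15, 0.0273). With the set as a term none of the oxAAT and recAAT calls named here remained, with edgeR adjusted p of 0.302 or more, but the sizes did not move alike. Slc3a2 stayed at -0.27 with oxAAT and -0.35 with recAAT, and Ddit4 with oxAAT stood at -0.70. Ahr stood at 0.67 with oxAAT and 0.40 with recAAT, and Hif3a with recAAT at 0.999. Azin1 shrank to 0.19 and 0.09 and Bnip3 to 0.19 and 0.05 with oxAAT and recAAT. Hk3 shrank to -0.24 and -0.17, Pfkfb4 with oxAAT to -0.17, and Pfkm, Mdh2 and Pfkp with recAAT to -0.24, -0.17 and -0.16.

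Leaving out single mice also ended several of these pathway calls. With oxAAT, every call named except that of Ahr was lost without LPS mouse 1102 or 1104 or oxAAT mouse 5103 or 5104, and some were lost without LPS mouse 1101 or oxAAT mouse 5101 or 5105. With recAAT, Hk3, Bnip3 and Pfkm lost their calls without LPS mouse 1104, Pfkm also without recAAT mouse 6102, and Mdh2 without any of 8 mice (LPS 1101 to 1104 and recAAT 6101 to 6104). The recAAT calls of Ahr, Azin1, Hif3a, Slc3a2 and Pfkp held whichever mouse was left out.

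Compared with air, each AAT group had 5 of 10 members called. They were Acod1, Arg2, Slc7a2, Hk2 and Nos2 with nAAT, Acod1, Arg2, Slc7a2, Nos2 and Arg1 with oxAAT, and Acod1, Arg2, Slc7a2, Nos2 and Pfkfb3 with recAAT. Of all tested genes these comparisons called 5.62%, 3.76% and 6.83%. Nos2, Arg1 and Pfkfb3 were the ones called lower. The 3 lists share their air mice, and a member called in these comparisons but not in LPS vs air is not thereby shown to differ between AAT and LPS.

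The 3 AAT forms were given at the same dose and times and were compared in pairs over the 10 members. Of these 30 tests Arg2 in oxAAT against nAAT was the single call, in a comparison that called 0.344% of all tested genes. Between recAAT and nAAT no member was called by edgeR or DESeq2, with 2 at an unadjusted p under 0.05 (Nos2 and Arg2), and 1.93% of all genes were called. Between recAAT and oxAAT none was called by either tool, with Arg2 at an unadjusted p under 0.05, and 0.0175% of all genes were called.

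Missing the threshold does not show that the forms act alike. For recAAT minus nAAT the 95% intervals were -0.68 to -0.09 log2 units for Nos2, -0.40 to -0.03 for Arg2 and -0.20 to 0.86 for Acod1. Those of recAAT minus oxAAT were -0.47 to 0.12 for Nos2, 0.07 to 0.45 for Arg2 and -0.19 to 0.87 for Acod1. For oxAAT minus nAAT, Nos2 lay between -0.50 and 0.08 and Acod1 between -0.54 and 0.52. The native and recombinant groups lie wholly in different library sets, so form and set cannot be told apart in that pair.

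Ranked by mean CPM per kilobase of exon, which allows levels of different genes to be compared, Pfkfb3 led in air at 18.5, followed by Hif1a at 12.7. Slc2a1, Arg2 and Slc7a2 came next at 7.88, 7.65 and 7.49 with overlapping spreads. Hk2 stood at 3.56, Nos2 at 2.31, Arg1 at 1.02, Ido1 at 0.436 and Acod1 last at 0.117. In LPS, Arg2 moved to the second place at 15.1, within its spread of Pfkfb3 at 16.8, and Acod1 passed Arg1 and Ido1 at 1.09 against 0.718 and 0.341. Arg2 led in every AAT group, at 20.3 with nAAT, 14.6 with oxAAT and 17.5 with recAAT. Pfkfb3 stood at 15.2, 14.1 and 13.1 there. Hif1a stood at 13.8 both with oxAAT and with recAAT, and with recAAT it ranked above Pfkfb3, within the spreads. With oxAAT the spreads of Pfkfb3 and Hif1a overlapped that of Arg2. Nos2 stood above Acod1 in LPS at 1.96 and with nAAT at 1.59 against 1.45. It stood below Acod1 with oxAAT at 1.37 against 1.45 and with recAAT at 1.22 against 1.82. The nAAT and oxAAT differences lay within the spreads.

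Over the 23 mice the closest company of each member differed in kind. The genes most like Acod1 in log2 CPM were Wfdc17, Ccl9 and Lcn2, with Pearson r of 0.938, 0.931 and 0.928. These values largely reflect the step from air to LPS, since over the 20 LPS-exposed mice they were 0.547, 0.381 and 0.255. Those most like Arg2 were the cell division genes Cdk1, Bub1b and Plk1 (0.950, 0.941 and 0.939), which without air were still at 0.796, 0.705 and 0.770. Slc7a2 went with Olr1, Adam17 and Cybb (0.908, 0.893 and 0.892), little altered without air at 0.911, 0.862 and 0.891.

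Nos2 was most like Rtn1, Nrros and Cxcr5 (0.843, 0.842 and 0.841), and Hif1a was most like Mbnl2, Gabpa and Serinc1 (0.974, 0.967 and 0.966). Hk2 was closest to Foxo3 (0.885), Pfkfb3 to Arhgap35 (0.851), Arg1 to Ngef (0.837), Ido1 to Angptl2 (0.743) and Slc2a1 to Pars2 (0.659). Among the members themselves, Acod1 and Arg2 gave r = 0.840 over all mice but 0.201 without air, and Acod1 and Nos2 gave -0.661 and -0.450. The mice of a point share groups, library sets and depth, so these are descriptions without a test.

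Cell makeup was not measured, and in whole lung a change in cell number and a change in RNA per cell cannot be told apart. Some markers of macrophages and of other cell types were called in LPS vs air, where Acod1 and Arg2 rose and 4.39% of all tested genes were called. The 10 alveolar macrophage markers summed to 647 to 711 CPM in air and 860 to 1055 CPM in LPS, with 3 of 10 called higher (Car4, Marco, Itgax) and 1 lower (Ear2). The 10 monocyte and recruited macrophage markers summed to 5366 to 6985 CPM in air and 7301 to 8664 CPM in LPS, with 4 called higher (C1qa, C1qb, C1qc, Cd14). Of 8 dendritic cell markers 2 were called higher (Fscn1, Ccl22), as was 1 of 8 alveolar type 2 markers (Sftpd). Of 4 tested liver markers 1 was called lower (Ttr). The part of these cell types in the member results was not tested.

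The 10 neutrophil markers summed to 200 to 255 CPM in air and 275 to 383 CPM in LPS, with 0 called by edgeR. Their sum was 243 to 708 CPM with nAAT and 208 to 428 CPM with recAAT, both overlapping LPS. With oxAAT it was 171 to 267 CPM, wholly below the LPS range. Nos2 and Hk3 were lower than in LPS both with oxAAT and with recAAT. No marker in these lists was below 0.5 CPM in all libraries. Beside the Arg2 step with nAAT, the alveolar macrophage sum was 1081 to 1371 CPM with nAAT, above the whole LPS range, against 798 to 1067 with oxAAT. The monocyte and recruited macrophage sum did not separate these groups. It was 7715 to 10263 CPM with nAAT, 7301 to 8664 CPM in LPS and 6883 to 8348 CPM with oxAAT. Beside the lower Nos2, the alveolar macrophage sum with recAAT was 625.4 to 1069 CPM, which spans the LPS range of 860 to 1055 CPM. None of the macrophage or neutrophil markers was called between an AAT group and LPS, and their part was not tested.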

How the data were processed

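Whole lungs of 23 mice were sequenced from poly(A) RNA with a stranded kit, per the labels' protocols. The deposited table holds whole-number read counts, not normalized by the authors, for 41388 Ensembl genes and 5 summary lines. Tools named in the submitters' processing notes, without their roles, are STAR 2.4.0.1, HTSeq 0.11.1, Trimmomatic 0.36 and 0.38 and FastQC 0.11.8, with build GRCm38; the strand setting of the counting is not given in the sources used here. Summary lines entered neither depth nor tests; 6.79% to 13.1% of tallied reads fell on no feature. Symbols, positions and exon lengths came from GENCODE mouse release 21 and promoters from RefSeq (GRCm38.p6).

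Counts were tested in R 4.3.3 with edgeR 4.0.16 (two-sided quasi-likelihood F test, TMM, filterByExpr, robust dispersion), in a model of all 23 libraries with a mean per group. P-values were Benjamini-Hochberg adjusted over 17148 genes and called under 0.05. SEs were taken as the log2 fold change over the root of F. CPM were scaled by TMM. The procedure was tested on simulated data. Replicates are separate mice, and p-values measure the spread between them. No pair of libraries of the same group agreed within sampling noise, and pairs between groups were not checked.

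The members and gene lists were chosen with earlier results of these data known. All members are named, with up to 3 called genes of smallest adjusted p per pathway list for LPS vs air and each AAT group vs LPS, and the 3 genes of highest Pearson r with each member (mean CPM of at least 1). Alternatives were DESeq2 1.42.0 (size factors, Wald test), library totals, other filters, only the groups compared, a replicate block, the library set, and leaving out each mouse. The fit of the second set alone, and the alternatives of the pathway genes, were added after seeing the data.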

Additional observations from a re-analysis of the deposited data

Results flagged for a closer look

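In Arg2 the direct test of the difference between 2 of the AAT forms passed the threshold, though not under every alternative. The change from LPS with oxAAT minus the change with nAAT was -0.48 log2 units (edgeR adjusted p = 0.0262), and since both changes use the same LPS mice this equals the contrast of oxAAT with nAAT. All 5 oxAAT mice, at 19.4 to 22.2 CPM, lay below all 5 nAAT mice, at 27.2 to 31.1 CPM. The call was lost with the set as a term (-0.53, adjusted p = 0.282), in the first set alone (-0.52, 0.307), with no filter (-0.46, 0.0543), with only the 2 groups (-0.46, 0.051) and without nAAT mouse 4101, 4102, 4103 or 4104 or oxAAT mouse 5103 or 5104 (edgeR adjusted p of 0.0514 to 0.0873). No single mouse stood apart from its group by Dixon's test in the 40 groups of 5 mice examined, where chance flags about 1 group in 20.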

How the results depend on the processing

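The calls of Acod1 and Arg2 above air, in LPS and in each AAT group, held under every alternative run, with Acod1 in LPS at 3.09 to 3.35 log2 units and Arg2 at 0.89 to 1.05 when a mouse was left out. Of the recomputed fold changes of members and named pathway genes, 403 kept their direction and side of the threshold, 81 lost their call, 1 gained it and 1 reversed under the settings other than leaving out a mouse. Leaving out a mouse gave 377, 129, 1 and 1. Counts of calls are not in this tally and follow. The reversals were Hif1a with recAAT against LPS with the set as a term (-0.16) and Arg2 with oxAAT against LPS without LPS mouse 1105 (0.025; -0.10 to 0.025 over the mice left out). The cause was not tested for any loss, though fits of fewer groups or mice also hold fewer samples.

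The number of members called (main value, then alternatives that moved it) was as follows. In nAAT against LPS it was 1, and 0 with no filter, with only the 2 groups or with the first set alone. In oxAAT against LPS it was 2, then 1 with no filter and 0 with only the 2 groups, the set term or the first set. In oxAAT against nAAT it was 1, and 0 under each of those 4. In nAAT against air it was 5, then 4 with DESeq2 size factors, no filter, only the 2 groups, the set term or the first set. In oxAAT against air it was 5, then 4 with no filter and 2 with only the 2 groups, the set term or the first set. In recAAT against LPS it was 2, then 0 with the set term. In recAAT against air it was 5, then 6 with DESeq2, 4 with DESeq2 size factors or no filter, and 2 with the set term. The replicate block moved 2 further counts, given next. At an unadjusted p under 0.05 the counts of 0 had 1 to 4 members by edgeR. Leaving out a mouse gave 0 to 1 (nAAT against LPS), 2 to 5 (nAAT against air), 0 to 2 (oxAAT against LPS), 0 to 1 (oxAAT against nAAT), 2 to 5 (oxAAT against air), 1 to 3 (recAAT against LPS) and 3 to 5 (recAAT against air).

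The last digit of the mouse number gave no visible pairing of the mice. Same-digit pairs had correlations of -0.383 to 0.354 (median 0.033). Different-digit pairs had correlations of -0.458 to 0.408 (median -0.027). Of 23 libraries, 7 correlated best with their own digit. With a replicate block by that digit, LPS vs air also called Hif1a lower (-0.50, edgeR adjusted p = 0.0179), and oxAAT against air called 3 members in place of 5, without Slc7a2 and Arg1. All genes called numbered 1364 with the block in place of 753 in LPS vs air, 248 in place of 102 in nAAT against LPS and 24 in place of 59 in oxAAT against nAAT.

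Counts over all genes moved by more than 1.5 times elsewhere too. With only the 2 groups compared they were 354 (LPS vs air), 16 (nAAT vs LPS), 15 in place of 808 (oxAAT vs LPS), 10 (oxAAT vs nAAT), 414 in place of 645 (oxAAT vs air), 561 in place of 331 (recAAT vs nAAT) and 1 in place of 3 (recAAT vs oxAAT). DESeq2 called 429, 1255, 241, 602 and 8 in nAAT vs LPS, oxAAT vs LPS, oxAAT vs nAAT, recAAT vs nAAT and recAAT vs oxAAT. With no filter 50 (nAAT vs LPS) and 25 (oxAAT vs nAAT) were called. With the set as a term the counts were 196, 6, 1 and 336 in nAAT vs LPS, oxAAT vs LPS, oxAAT vs nAAT and oxAAT vs air, and 278 in place of 1171 in recAAT vs air. In recAAT vs LPS 0 were called in place of 1456 and in recAAT vs nAAT 0 (1261 and 2093 at an unadjusted p under 0.05 by edgeR). The first set alone gave 34, 13, 2 and 251 in the same 4 comparisons of nAAT and oxAAT. Leaving out a mouse gave 391 to 904 (LPS vs air), 20 to 144 (nAAT vs LPS), 167 to 1881 (oxAAT vs LPS), 3 to 275 (oxAAT vs nAAT), 88 to 282 (recAAT vs nAAT), 865 to 2316 (recAAT vs LPS), 392 to 785 (oxAAT vs air) and 762 to 1055 (recAAT vs air). Depth limits Acod1 in air and Ido1 everywhere, with as few as 7 and 5 reads in a library. The air level of Slc13a3 was similarly low in CPM.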
